A study of Mus musculus with 2 samples.

Results

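The miRNAs described here are 7 mature products of hairpins reported to be transcribed under p53: mmu-miR-34a-5p, mmu-miR-34b-5p, mmu-miR-34c-5p, mmu-miR-34c-3p, mmu-miR-192-5p, mmu-miR-194-5p and mmu-miR-215-5p. They were taken by name from the 1900 miRNA probes of the array and not by a cut on their values, but with earlier results of these data known. B16 cells, a mouse melanoma line, were grown in medium with 5% serum and given either Fam222B-siRNA or Control-siRNA with a lipid reagent, and total RNA was taken 48 h later. Each siRNA had 1 array (n = 1), so no value has a replicate error and the groups could not be tested against each other. Both groups are the same line and both were transfected, and the arrays hold no probe for the Fam222B mRNA, so the knockdown was not analysed here.

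p53 is a transcription factor that is activated by DNA damage and other stress and that halts the cell cycle or starts cell death. Among its targets are the gene of miR-34a, which stands alone, and the gene of miR-34b and miR-34c, which share 1 transcript. The miR-34 family represses mRNAs of the cell cycle and of survival, such as those of Cdk4, Cdk6 and Bcl2. The genes of miR-192, miR-194 and miR-215 were found to respond to p53 in human cells, and miR-192 and miR-194 are known for high levels in liver, gut and kidney. A hairpin gives 2 arms, named 5p and 3p, of which usually 1 is kept in the silencing complex and the other is degraded.

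The mature sequences show which products share a seed, the bases 2 to 8 that pair with target mRNAs, given in capitals. RefSeq (GRCm38.p6) held 6 of the 7 miRNAs, all but miR-34c-5p. miR-34b-3p and miR-449a-5p are printed as well because they carry the same seeds.
mmu-miR-34a-5p: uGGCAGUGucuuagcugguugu
mmu-miR-34b-5p: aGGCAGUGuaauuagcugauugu
mmu-miR-449a-5p: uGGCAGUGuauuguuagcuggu
mmu-miR-34c-3p: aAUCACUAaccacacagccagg
mmu-miR-34b-3p: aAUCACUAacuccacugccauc
mmu-miR-192-5p: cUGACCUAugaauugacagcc
mmu-miR-215-5p: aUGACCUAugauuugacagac
mmu-miR-194-5p: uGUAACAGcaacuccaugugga

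miR-34a-5p lies at chr4:150068473-150068494 on the plus strand. The hairpins of miR-34c and miR-34b lie together at chr9:51103034-51103645 on the minus strand, 451 bases apart. miR-194-5p has 2 sources with the same mature sequence, 1 beside miR-215 at chr1:185313319-185313692 and 1 beside miR-192 at chr19:6264643-6264932, both on the plus strand, and its probe cannot tell them apart. miR-192-5p and miR-215-5p share their seed and differ by 3 edits over 21 bases, and miR-34a-5p and miR-34b-5p by 4 edits, so probes for such pairs may take signal from each other. The 3p arms of miR-34b and miR-34c differ by 5 edits outside their shared seed.

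Signal was read as the median intensity of each spot, and net signal is that value minus the mean of the blank spots of the array (70.3 units for control-siRNA and 69.9 for Fam222B-siRNA). Detection required a spot above the trimmed blank mean plus 2 SD, which is 72.6 and 72.5 units. This held for 1219 probes on the control-siRNA array and 958 on the Fam222B-siRNA array, with 910 on both. Errors given as spot SD come from repeated control spots and blank spots within an array and hold no difference between cultures or hybridisations. The melanocyte miRNA miR-211-5p gave 264 and 326 net units, its other arm miR-211-3p 83.3 and 70.4 and its relative miR-204-5p 36.3 and 30.2, while miR-122-5p, which defines liver cells, was not detected on either array (0.280 and 1.09 net units).

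Of the 7 miRNAs, miR-34a-5p was the only one with a clear signal on both arrays, miR-34b-5p, miR-34c-5p, miR-34c-3p and miR-194-5p were weak, and miR-192-5p and miR-215-5p lay at the edge of detection. All 7 passed the detection threshold on the control-siRNA array and 6 on the Fam222B-siRNA array. On control-siRNA, miR-34c-3p (16.004 ± 1.71 net units, spot SD), miR-194-5p (14.0 ± 1.67), miR-34b-5p (13.9 ± 1.67) and miR-34c-5p (13.3 ± 1.66) followed miR-34a-5p, and each neighbour among these 4 differed by less than the spot SD of the gap. The step below them, from miR-34c-5p to miR-192-5p, was 9.91 units (spot SD 2.27). On Fam222B-siRNA the order below miR-34a-5p was miR-34c-5p, miR-34b-5p, miR-194-5p, miR-34c-3p and miR-192-5p. There the step from miR-194-5p down to miR-34c-3p (4.03 units, spot SD 2.40) exceeded 1 spot SD, and the steps on either side of this pair did not. The order is one of spot brightness, because probes differ in how brightly they report the same number of molecules.

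**Figure D1:**
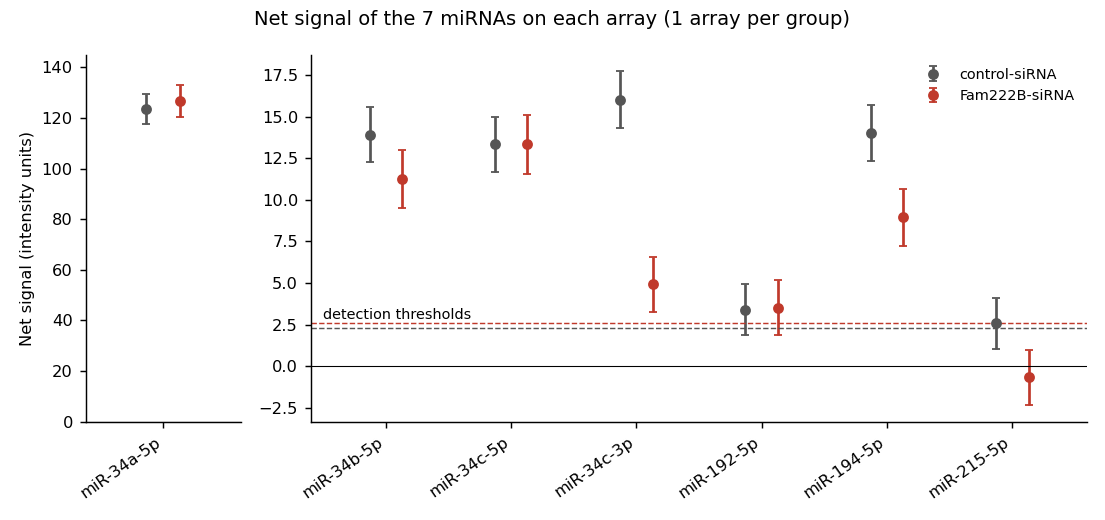
Net signal (y axis, intensity units above the blank mean) of the 7 miRNAs on the control-siRNA array (grey) and the Fam222B-siRNA array (red), with bars of 1 spot SD and dashed lines at the detection thresholds. The left panel has its own scale for miR-34a-5p, at 123 and 127 units, and in the right panel miR-34c-3p has the widest gap, at 16.004 and 4.92 units.

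The 2 arrays were compared to see which of these miRNAs differed in signal with the siRNA. One of the 6 miRNAs detected on both arrays, miR-34c-3p, was at least 2-fold lower after Fam222B-siRNA, and none was 2-fold higher. Over all 910 miRNAs detected on both arrays, 22 (2.42%) were at least 2-fold lower and 27 (2.97%) at least 2-fold higher. By a second rule, more than 2 spot SD from 0, miR-34c-3p was again the 1 lower miRNA among the 6, against 16 of 910 (1.76%), and none was higher, against 71 of 910 (7.8%). Of the 6, 3 were lower and 3 higher, with a median log2 difference of -0.034, where the median of all 910 was set to 0, with 455 higher and 455 lower. With no scaling 320 of the 910 were higher and 590 lower, while the 6 still split into 3 and 3, with a median of -0.15. Scaled to the spike controls, the median of the 6 was 0.019, and 1 of the 6 was higher by more than 2 spot SD, as were 104 of the 910. Unless another scaling is named, log2 differences are of net signal, Fam222B-siRNA over control-siRNA, scaled to a median of 0. That scaling divides the Fam222B-siRNA values by 0.921.

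**Figure D2:**
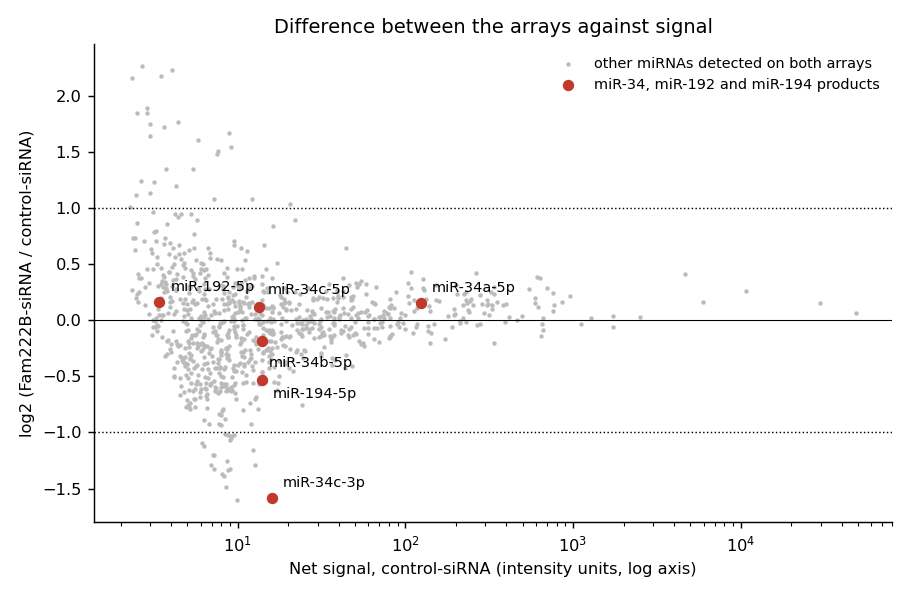
Each point is 1 of the 910 miRNAs detected on both arrays, with net signal on the control-siRNA array (x axis, log scale, intensity units) and the scaled log2 difference (y axis), and dotted lines mark 2-fold. The 6 miRNAs in red lie within 2-fold except miR-34c-3p at -1.58, and the scatter of all points is widest at low net signal.

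miR-34a-5p, the main product of the stand-alone gene, gave spots of 193.7 units on the control-siRNA array and 196 units on the Fam222B-siRNA array. Net of the blanks these were 123 ± 5.97 and 127 ± 6.27 units (spot SD), and the values overlap. It was the 86th and the 83rd brightest of the 1900 probes. The scaled log2 difference was 0.16 with a spot SD of 0.10, so that the difference, 1.11-fold, lay within 2 spot SD. Scaled to the spike controls it was 0.21, just past 2 spot SD. The nearest miRNAs by net signal over both arrays were miR-7033-5p, miR-3547-5p and miR-494-3p, at distances of 0.15, 0.16 and 0.16 on the log2 scale, which with 2 arrays describes level and not a shared response.

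The other arm, miR-34a-3p, which is normally the less abundant product, was detected at 5.15 net units on control-siRNA and 5.77 on Fam222B-siRNA. Its log2 difference was 0.28 (spot SD 0.61), so in the main scaling neither arm of miR-34a differed beyond 2 spot SD. The probes of the miR-449 family, whose 5p arms carry the miR-34 seed and which is best known from ciliated epithelium, were close to the blanks. miR-449a-5p gave 1.65 and -0.45 net units and miR-449c-5p 2.16 and -0.28, detected on neither array, while miR-449b gave 2.46 and 1.28 and was detected on control-siRNA alone. The signal of miR-34a-5p was therefore not accompanied by signal on the miR-449a-5p probe, which differs from it by 6 edits.

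miR-34b-5p, from the first hairpin of the miR-34b and miR-34c transcript, gave spots of 84.2 units on control-siRNA and 81.2 on Fam222B-siRNA, or 13.9 and 11.3 net units. The log2 difference was -0.19 (spot SD 0.28). miR-34c-5p gave 83.6 and 83.2 units, or 13.3 net units on each array, with a log2 difference of 0.12 (spot SD 0.26). Neither 5p arm of the cluster differed between the arrays by 1 spot SD. Set against miR-34a-5p, the difference of miR-34b-5p was lower by 0.34 (spot SD 0.30) and that of miR-34c-5p by 0.037 (spot SD 0.28), so the 5p arms of the stand-alone gene and of the cluster did not part by more than 2 spot SD.

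miR-34c-3p, the other arm of the miR-34c hairpin, gave a spot of 86.3 units on the control-siRNA array and 74.8 units on the Fam222B-siRNA array. Net of the blanks this was 16.004 ± 1.71 units against 4.92 ± 1.68, and the values do not overlap within 1 spot SD. Its rank among the 1900 probes went from 339 to 715. The log2 difference was -1.58 (spot SD 0.52), or 3.00-fold lower, and of all 910 miRNAs only miR-764-5p, named after its value was seen, had a lower one at -1.61. The difference of the 3p arm lay 1.70 below that of the 5p arm on the log2 scale (spot SD 0.58), so the arms of this hairpin parted by 3.25-fold. Among the 179 miRNAs with 10 to 20 net units on the control-siRNA array, a range chosen after the value was seen, 3 (1.68%) were at least 2-fold lower, namely miR-34c-3p, miR-3059-5p and miR-218-5p. On the Fam222B-siRNA array the spot lay 3.76 trimmed blank SD above the blank mean, so the size of the fold rests on a signal near the detection limit.

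miR-34b-3p, which shares its seed with miR-34c-3p and comes from the same transcript, gave 6.63 net units on control-siRNA and 2.43 on Fam222B-siRNA, where it was not detected. Its spot there, at 72.3 units, lay just under the threshold, and a bound on the ratio is at least 2.35-fold lower. The change of -4.20 net units had a spot SD of 2.29, within 2 spot SD. In the block of miR-34b-3p, 41 of the 42 other dim spots were lower as well. Their median change was -2.34 units and their lowest -4.56, beside -4.58 units for miR-34b-3p. Both 3p arms of the miR-34b and miR-34c cluster thus had lower signal on the Fam222B-siRNA array. For miR-34b-3p so did nearly all dim spots of its block, though none of them fell as far. Of the 2 arms only the difference of miR-34c-3p exceeded 2 spot SD.

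**Figure D3:**
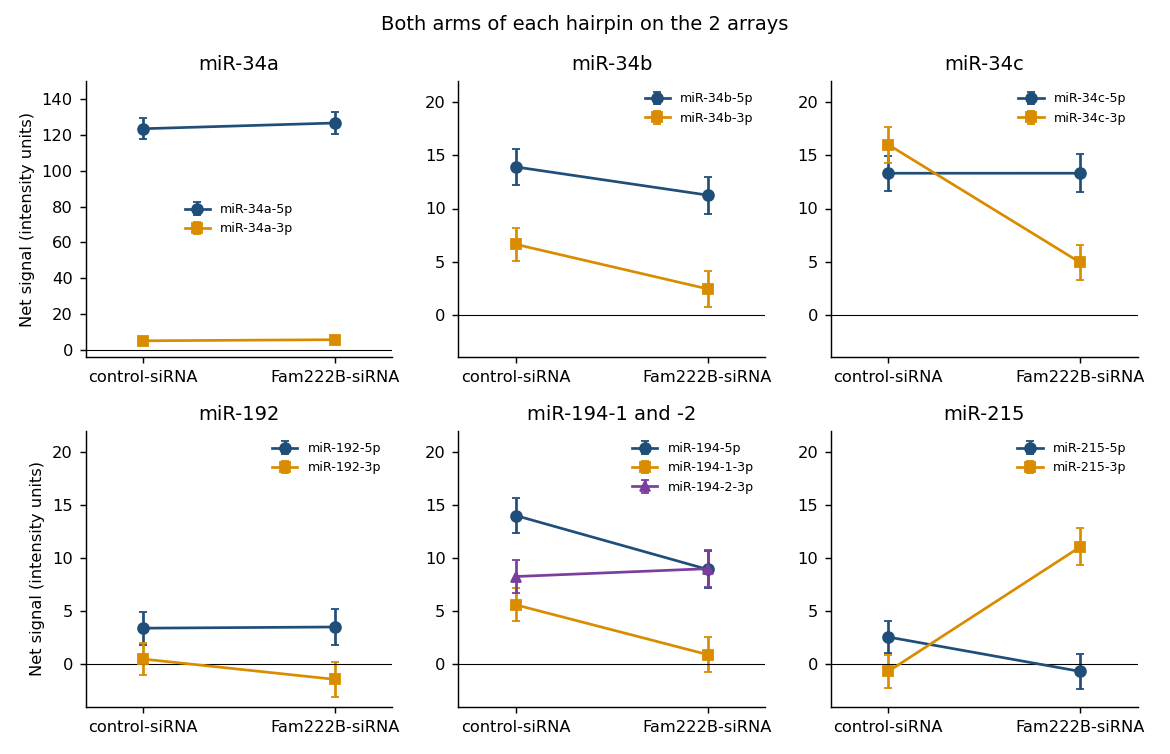
Net signal (y axis, intensity units) of the 5p and 3p products of each hairpin on the control-siRNA and Fam222B-siRNA arrays, joined by lines that pair the 2 arrays, with bars of 1 spot SD and a separate scale for miR-34a. The lines of miR-34c cross, with the 5p arm level at 13.3 units and the 3p arm going from 16.004 to 4.92, and those of miR-215 part the other way, with the 3p arm going from -0.65 to 11.1.

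The spots around the miR-34c-3p probe on the array also differed between the arrays. The probe is printed at column 1, row 1 of block 25, 1 of 4 blocks (17, 18, 25 and 26) in which some dim spots were brighter on the Fam222B-siRNA array. Without those blocks, 6 miRNAs in place of 27 were at least 2-fold higher, and miR-34a-5p, printed in block 26, and miR-34c-3p had no value. The melanocyte miRNA miR-211-5p, with 264 and 326 net units, is printed in block 25 as well. In block 25, 15 of the 37 dim miRNA spots (under 80 units on control-siRNA) were more than 5 units brighter after Fam222B-siRNA. The median change of the 37 was 1.14 units, while miR-34c-3p changed by -11.5 units. At 86.3 units on control-siRNA, miR-34c-3p was not itself a dim spot and had more room to fall. Its neighbours went different ways: the spot below it, miR-3059-5p, changed by -8.25 units, the spot to its right by -5.28 and the spot on the diagonal by 8.53. miR-3059-5p was also the miRNA nearest to miR-34c-3p in level over both arrays, at 12.6 and 4.75 net units (distance 0.35 on the log2 scale), followed by miR-218-5p at 0.38 and miR-5124a at 0.49. The part of position in the difference was not tested.

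The first spot of a block also has a high value in the background column of the files, with medians of 110 units on control-siRNA and 106 on Fam222B-siRNA over 32 blocks, against 68.6 and 65.0 for the other miRNA spots. At miR-34c-3p it was 116 and 97.96 units, above the spot itself on both arrays. The 31 other first spots changed by a median of -2.45 units, 28 of them downwards, with a range from -6.70 to 10.1 units. The change of miR-34c-3p lay outside that range. Among all 1662 miRNA spots under 100 units on control-siRNA, 3 were more than 10 units dimmer on Fam222B-siRNA. They were miR-34c-3p, miR-6916-5p and miR-679-3p, the last with a spot that the scanner marked as not good. Most of the 1662 could hardly fall so far. Of them, 1249 outside the 4 blocks and 172 within were under 80 units, where such a fall would reach the blank level. The count of 3 therefore does not give how rare such a fall is among spots with room for it.

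**Figure D4:**
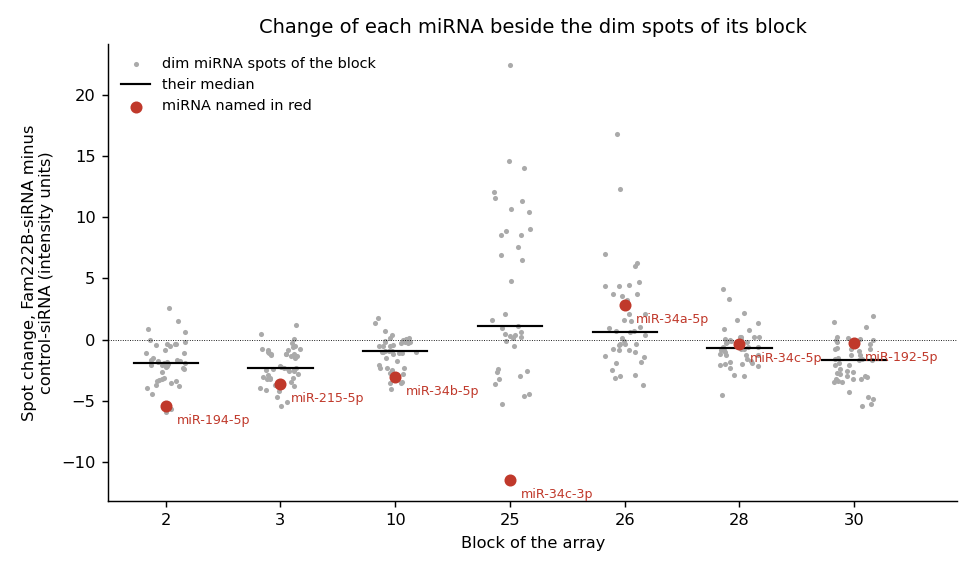
Change of spot intensity, Fam222B-siRNA minus control-siRNA (y axis, intensity units), for the 7 miRNAs in red and for the dim miRNA spots in the block of each in grey (x axis, block number), with black bars at the medians of the grey points. miR-34c-3p lies at -11.5 units, and the dim spots of block 25 (under 80 units on control-siRNA) reach from -5.28 to 22.4 units. These start close to the blank level and have little room to fall, while miR-34c-3p started at 86.3 units. They leave out miR-3059-5p of the same block, which started at 82.9 units and changed by -8.25 units.

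miR-192-5p, a miRNA of liver, gut and kidney that in human cells is induced by p53, gave spots of 73.7 units on control-siRNA and 73.4 on Fam222B-siRNA. These are 3.41 and 3.53 net units, each just above the detection threshold and each with a spot SD of 1.55 or more. The log2 difference of 0.17 had a spot SD of 0.95, so a 2-fold difference would have been within 2 spot SD at this signal. Its 3p arm was detected on neither array, at 0.507 and -1.41 net units.

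miR-194-5p, which is made from the miR-192 and the miR-215 transcripts, gave spots of 84.3 units on control-siRNA and 78.8 on Fam222B-siRNA, or 14.0 and 8.95 net units. The spot on the Fam222B-siRNA array was the lower one, with a log2 difference of -0.53 (spot SD 0.33, within 2 spot SD), or 1.44-fold. In net units the change was -5.07 (spot SD 2.40), just past 2 spot SD, and -4.36 with the No Probe spots as background, within it. The change of -5.46 units stood beside a median of -1.88 over the 43 dim spots of its block. Of these, 39 were lower as well, and 2 fell at least as far. Relative to miR-192-5p its difference was lower by 0.69 on the log2 scale (spot SD 1.00). The 3p arms tell the sources of miR-194 apart. miR-194-1-3p, from the miR-215 transcript, went from 5.61 to 0.927 net units and was not detected on Fam222B-siRNA, with a bound of at least 1.99-fold lower. That change of -4.69 net units (spot SD 2.28) was just past 2 spot SD, and -3.98 with the No Probe spots as background, within it. Of the 46 other dim spots of its block 38 were lower as well, with a median change of -2.17 units. The spot of miR-194-1-3p changed by -5.07 units, and 2 of the 46 fell at least as far. miR-194-2-3p, from the miR-192 transcript, gave 8.28 and 9.01 units, with a log2 difference of 0.24 that lay within 1 spot SD (0.39).

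miR-215-5p, the seed partner of miR-192-5p, gave spots of 72.9 units on control-siRNA and 69.2 on Fam222B-siRNA. It was detected on the control-siRNA array alone, at 2.58 ± 1.54 net units, and lay at -0.66 ± 1.66 units on the other. No fold is given because the brighter value does not exceed the lowest signal that counts as detected on the other array after scaling. The 47 other dim spots of its block had a median change of -2.32 units, beside -3.62 units for miR-215-5p. Of the 47, 44 were lower and 8 fell at least as far. Its 3p arm went the other way, from -0.65 to 11.1 net units, detected after Fam222B-siRNA alone with a bound of at least 5.26-fold higher. miR-215-3p is printed in block 25, at a distance from miR-34c-3p, and 14 of the 36 other dim spots there were also more than 5 units brighter. The part of the block in that value was not tested.

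Dim spots in general were lower on the Fam222B-siRNA array, and this level stands beside each of the weak miRNAs. Outside the 4 blocks the 1249 miRNA spots under 80 units changed by a median of -1.69 units, while the blank mean changed from 70.3 to 69.9. Markers of cells that the culture should lack, also dim, were lower in sum, with 27.9 and 12.9 net units over 5 blood miRNAs, 16.4 and 2.93 over 5 epithelial ones and 11.9 and 3.78 over 3 of muscle, and about level at 15.7 and 15.3 over 2 of endothelium. Their brightest were miR-451a (13.5 and 12.2 net units), miR-126a-3p (11.9 and 12.2) and miR-206-3p (5.63 and 1.70). Spots named No Probe had means of 70.3 and 69.2 units, below the blank mean on the Fam222B-siRNA array alone. With their mean as the background miR-34c-3p was at 15.9 and 5.57 net units (log2 difference -1.47), miR-194-5p at 14.0 and 9.60 (-0.49), miR-34b-5p at 13.9 and 11.9 (-0.17) and miR-215-5p at 2.52 and -0.0031. The authors' deposited values, on their own linear scale, gave 54.6 and 18.3 for miR-34c-3p, 420 and 468 for miR-34a-5p and 47.8 and 33.2 for miR-194-5p, and for miR-215-5p a value on the control-siRNA array only.

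**Figure D5:**
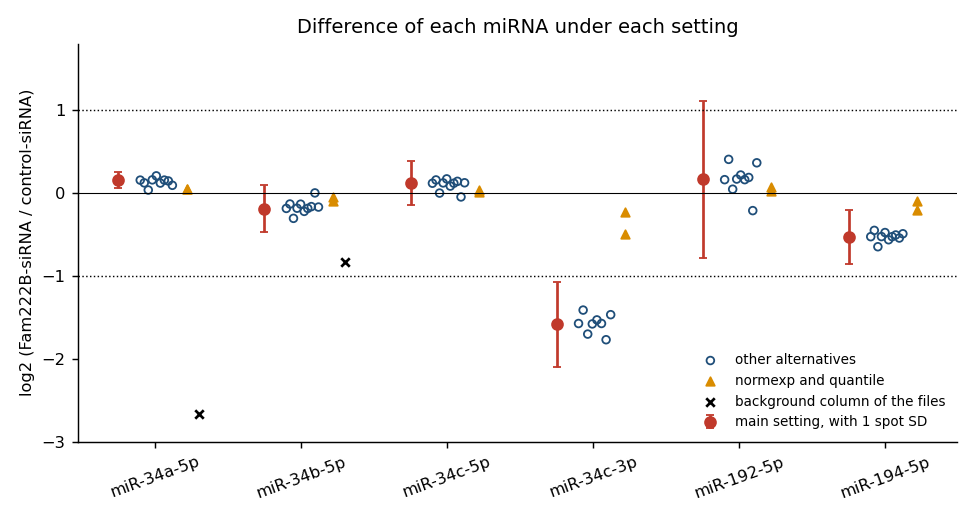
Log2 difference (y axis, Fam222B-siRNA over control-siRNA) of the 6 miRNAs detected on both arrays in the main setting (red, bar of 1 spot SD) and under the alternatives. miR-34c-3p is below -1 in all settings that give it a value except the 2 with normexp, at -0.23 and -0.49, and miR-34a-5p is near 0 except with the background column of the files, at -2.67.

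Other miRNAs linked to p53 were taken as 2 lists, in which none detected on both arrays differed by 2-fold, where 2.42% of all 910 were that much lower and 2.97% higher. A list of 12 miRNAs reported as induced by p53 or processed with its help, mostly in human cells, had all 12 detected on control-siRNA and 8 on Fam222B-siRNA, and of these 8, 6 were higher and 2 lower with a median log2 difference of 0.080. That split rests on the scaling: without it 2 were higher and 6 lower, with a median of -0.038 beside -0.12 for all 910. miR-16-5p, a repressor of cell cycle mRNAs, gave 760 and 741 net units (0.083, spot SD 0.096), miR-22-3p 399.8 and 408 units (0.15, spot SD 0.097) and miR-149-3p, reported as p53-responsive in human melanoma cells, 240.5 and 234 units (0.078, spot SD 0.097). The 4 not detected after Fam222B-siRNA, miR-200a-3p, miR-200c-3p, miR-141-3p and miR-429-3p, belong to the miR-200 family, an epithelial group, and lay between 2.95 and 4.91 net units on control-siRNA. One miRNA of the 8 was lower by more than 2 spot SD, as were 1.76% of all 910, but not when scaled to equal 75th percentiles or to the spike controls. It was miR-143-3p, whose processing p53 aids in human cells, with 139.96 and 112 net units and a log2 difference of -0.20 (spot SD 0.10).

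A second list held 5 miRNAs that target the p53 mRNA in human or other vertebrate cells. All 5 were detected on both arrays, and after scaling, which puts 455 of the 910 above 0, all 5 had log2 differences above 0, with a median of 0.15. Without scaling 4 were higher and 1, miR-125b-5p, lower, with a median of 0.034. miR-30d-5p gave 380.1 and 385 net units (0.14, spot SD 0.097), miR-25-3p 87.4 and 96.1 units (0.25, spot SD 0.10) and miR-125b-5p 60.5 and 57.5 units (0.044, spot SD 0.11). miR-25-3p alone was more than 2 spot SD higher, as were 7.8% of all 910, and not so without scaling. Scaled to the spike controls, 2 of the 5 were higher by that much, as were 104 of the 910. miR-25-3p is printed in block 25.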

How the data were processed

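Total RNA of 2 samples was labelled with Cy5 and hybridised to 3D-Gene miRNA arrays of 1 colour, per the labels' protocols. Each deposited scanner file gives the median intensity of 3200 spots in 32 blocks at 635 nm and a background median, read at 3 gains, per the file headers. The authors' table holds processed intensity values on a linear scale, and how it was made is not given in the sources used here. No genome build or software version is stated in the sources used here.

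The mean of 896 BLANK spots was subtracted. A spot was detected above the trimmed blank mean plus 2 SD (5% of blanks dropped at either end). Net ratios were scaled so that their median over miRNAs detected on both arrays was 1. Spot SD joins the CV of 5 repeated control probes (4.67% and 4.78%) with the blank SD (1.54 and 1.66 units), by the delta method for log2 values. With 1 array per group no test was made, and so few arrays limit the precision. A bound divides the bright value by the lowest signal detected on the other array, or by the dim value where that is higher, after scaling. The calculations were tested on simulated data.

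The members, lists and rules were chosen with earlier results of these data known. Named miRNAs are all 7, the other arms of their hairpins, the miR-449 seed relatives, up to 3 bright ones and those past 2-fold from each list, and the 3 nearest in level to miR-34a-5p and to miR-34c-3p. Others are said to be named after their values were seen, and miR-143-3p, miR-6916-5p, miR-679-3p and the 4 miRNAs of the miR-200 family are so too. Of the marker lists, 1 of 5 blood, 1 of 3 muscle, 2 of 2 endothelial and 1 of 5 epithelial miRNAs were detected on both arrays. Alternatives used R 4.3.3 with limma 3.58.1; other steps used Python 3.11.15 with pandas 2.3.3.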

Additional observations from a re-analysis of the deposited data

How the results depend on the processing

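The difference of miR-34c-3p was below 0 in all 10 alternatives that gave it a value and past 2-fold in 8. The exceptions were normexp with quantile normalization, at -0.23 with an offset of 50 and -0.49 with an offset of 16, offsets that damp dim spots. It had no value with the background column of the files, with detection at 5 SD or without the 4 blocks. miR-34a-5p was at 0.045 and 0.055 with the same 2 offsets, at 0.037 with no scaling and at -2.67 with the background column. In that last setting miR-34b-5p was at -0.83, and 2 of the 7 miRNAs could be measured. There the column's value at miR-34a-5p, 139 units on control-siRNA and 187 on Fam222B-siRNA, was subtracted from spots of 193.7 and 196 units. Why the column's value differed was not tested. miR-194-5p was at -0.098 with the offset of 50 and below 0 in all 12 alternatives. miR-34b-5p was above 0 in 1 of 13, miR-34c-5p below 0 in 1 of 12 and miR-192-5p below 0 in 1 of 11.

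Of all miRNAs, 73 were 2-fold higher and 112 lower with the background column, and 0 and 0 with each offset. There were 8 and 0 with detection at 5 SD, and 6 higher without the 4 blocks. At 1.5-fold there were 65 higher and 78 lower. At 2-fold there were 1 higher and 3 lower among those of 10 to 20 net units on control-siRNA. Scaling to the spike controls put the median of all miRNAs at 0.053 and no scaling at -0.12. The last range and the No Probe mean were added after the data were seen. Signal near the blanks limits all values here but that of miR-34a-5p. No paired analysis was possible because each group has 1 array.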
